A study of Mus musculus with 4 samples.

Results

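Integrins are the subject here, as RNA levels of their subunit genes in mouse muscle stem cells with and without a conditional deletion of Hairless (Hr), a nuclear corepressor. The members are 10 subunit genes taken by symbol: Itga3, Itga5, Itga6, Itga7, Itga9, Itgav, Itgb1, Itgb3, Itgb5 and Itgb6. Of these, 8 have a row among the 11603 genes of the authors' table, and Itga9 and Itgb3 were not analysed here. RNA was sequenced from VCAM1-positive cells, negative for CD31, CD45 and Sca1, sorted from hindlimb muscle of male C57BL/6 mice aged 4 to 5 months. There were 2 libraries labelled control and 2 labelled conditional Hairless knockout, all without a stated treatment. The labels do not name the promoter that drives the deletion, the alleles the controls carry, or whether libraries of a group came from separate animals. P-values therefore measure only the spread between these libraries, which may be technical. Levels are in RPKM, reads scaled to exon length and library size, so that genes can be compared with each other. Hr itself measured 9.28 and 8.94 RPKM in the controls versus 7.15 and 7.90 RPKM in the knockouts (limma adjusted p = 0.431). The labels do not say which part of Hr is deleted, and a sum over all exons does not check a partial deletion, so every direction below rests on the labels.

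Muscle stem cells lie between the fibre and its basement membrane. An integrin is a pair of membrane proteins, 1 alpha and 1 beta chain, that binds extracellular matrix outside the cell and links to actin inside it. The alpha chain largely sets the ligand. Alpha 3, alpha 6 and alpha 7 pair with beta 1 to bind laminins, the main proteins of the basement membrane, and alpha 6 also pairs with beta 4. Alpha 5 beta 1 is the classical fibronectin receptor, and alpha v pairs with beta 1, beta 3, beta 5, beta 6 or beta 8 to bind proteins that carry an Arg-Gly-Asp (RGD) motif. Alpha 7 beta 1 is the principal laminin integrin of skeletal muscle and is used as a surface marker of muscle stem cells, while beta 1 is the shared partner of most alpha chains in these cells. Inside the cell, talin binds the beta tail at a membrane-proximal Asn-Pro-X-Tyr site, and the alpha tail starts with a conserved GFFKR stretch that holds the resting pair together.

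The tail sequences are shown because the alpha members with a row share a motif there and the beta members with a row share a different motif. Talin, described later, binds the Asn-Pro-X-Tyr site of the beta tail. The coding bases come from GENCODE M21 transcripts (GRCm38, the build of the authors' table), 5′ to 3′. In the alpha subunits the capitals mark the 5 codons of GFFKR, with 15 bases on each side.
Itga3: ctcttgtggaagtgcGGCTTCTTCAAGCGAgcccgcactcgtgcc
Itga6: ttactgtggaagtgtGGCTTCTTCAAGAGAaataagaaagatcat
Itga7: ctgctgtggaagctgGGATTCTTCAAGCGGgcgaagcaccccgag
Itga5: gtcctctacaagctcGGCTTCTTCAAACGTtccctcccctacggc
Itgav: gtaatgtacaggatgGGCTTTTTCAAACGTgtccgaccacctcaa
In the beta subunits the capitals mark each Asn-Pro-X-Tyr codon run, in a window of 48 bases that starts with the first.
Itgb1: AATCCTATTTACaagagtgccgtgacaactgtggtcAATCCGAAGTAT
Itgb5: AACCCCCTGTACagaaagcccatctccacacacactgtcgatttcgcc
Itgb6: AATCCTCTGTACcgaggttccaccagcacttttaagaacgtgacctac
The alpha windows each cross an intron, in Itga7 between exons 24 and 25 at chr10:128954060-128957653 on the plus strand and in Itga5 between exons 29 and 30 at chr15:103345320-103345963 on the minus strand. The Itga3 window (chr11:95046558-95046932, minus strand) and the Itga6 window (chr2:71849495-71853566, plus strand) span exons 24 and 25, and that of Itgav (chr2:83802991-83803272, plus strand) spans exons 29 and 30. The beta windows lie within 1 exon each, exon 16 for Itgb1 (chr8:128732029-128732076, plus strand) and exon 15 for Itgb5 (chr16:33948663-33948710, plus strand) and Itgb6 (chr2:60600530-60600577, minus strand). Motifs were sought in the C-terminal part of each protein as translated from the transcript. The alpha motif was found in 5 of 5 alpha members with a row and, allowing Arg for Lys, in 3 of the 4 other alpha subunits with a row. The beta site was found in 3 of 3 beta members and in 1 of the 4 other beta subunits with a row, and Itgb1 held 2 copies. Over whole coding sequences the 3 pairs of laminin-binding alpha genes were 56.3% to 58.2% identical in bases, and the 6 pairs of a laminin-binding with another alpha gene 53.9% to 57.6%, so the ranges overlapped. Itga5 and Itgav shared 61.0%.

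The members spanned more than 3 orders of magnitude in level, and ordered by control mean they were Itgb1, Itga7, Itga5, Itgb5, Itgav, Itga6, Itga3 and Itgb6. Itgb1 had a higher mean RPKM than 95.8% of all genes and Itga7 than 92.3%, whereas Itga3, Itga6 and Itgb6 lay above 19.5%, 22.3% and 1.51% of genes. Itgb5 and Itgav overlapped in control, as did Itga6 and Itga3, so neighbours in these 2 places were not separated by more than their spread. Among the laminin receptor chains Itga7 was by far the most abundant, and Itga6 amounted to 0.0180 and 0.0186 of it in the control libraries and to 0.0180 and 0.0393 in the knockout libraries.

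Itga7 and Itgb1, the abundant laminin receptor pair, and Itga5, the fibronectin receptor chain, had lower values in both knockout libraries, and Itga7 had the largest log2 change of the 8 members. Of the 8 members with a row, 4 had both knockout values below both control values (Itga7, Itga5, Itgb1 and Itgav), where 26.2% of all genes did, and 0 had both above, where 25% of all genes did. With limma over all genes 0 of the 8 had an adjusted p under 0.05, against a background of 0.00862% of genes called lower and 0% called higher. At an unadjusted limma p under 0.05, 3 of the 8 were lower (Itga7, Itga5 and Itgb1), beside 7.69% of all genes, and 0 were higher, beside 10.3%. Itga7 alone of the 8 passed 0.05 in the adjusted p of the authors' deposited table, where 4.26% of all genes were called lower and 3.59% higher. The median log2 change of the 8 was -0.39, beside -0.01 for all genes, and -0.22 without control 2. Because these are bulk libraries, fewer cells of a type and less RNA per cell cannot be told apart.

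**Figure D1:**
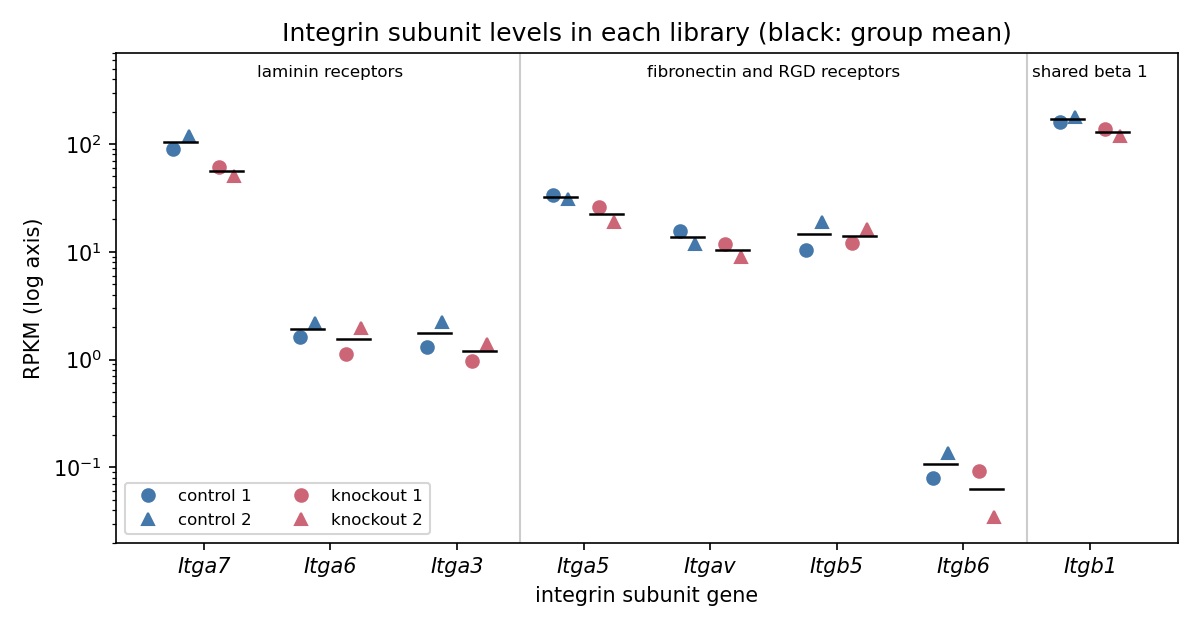
RPKM of the 8 integrin members (log axis) in each library, circles for replicate 1 and triangles for replicate 2, blue for control and red for knockout, with black lines at group means. Both knockout points lie below both control points for Itga7, Itga5, Itgav and Itgb1, and the groups overlap for Itga6, Itga3, Itgb5 and Itgb6.

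The laminin receptors were led by Itga7 (Entrez gene 16404, chromosome 10, 128933813 to 128958277, plus strand, mm10). Its level was 90.8 RPKM in control 1, 118 RPKM in control 2, 61.9 RPKM in knockout 1 and 49.9985 RPKM in knockout 2. Both knockout libraries were thus below both control libraries, and the gap between the nearest libraries exceeded the difference between the knockout libraries. The means were 105 ± 19.5 and 55.9 ± 8.403 RPKM (SD, n = 2), 46.5% lower in knockout. The log2 change, computed on log2(RPKM + 0.5), was -0.89 (standard error, SE, 0.19), with a limma unadjusted p of 0.00412 and a limma adjusted p = 0.163. The adjusted p in the authors' deposited table was 0.00849. The values rest on 3296 to 9918 reads per library. The table sums all exons, so the alternatively spliced forms of alpha 7, which differ in their laminin-binding and tail regions, are not separated. In GENCODE an exon of Mettl7b on the other strand overlaps exon bases of Itga7, and the strand setting of the counting is not given in the sources used here.

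Itga7 is also made by muscle fibres. Of the 5 fibre markers with a row, 4 had both knockout values below both control values, beside 26.2% of all genes, and Tnnt3 overlapped. Summed over the 5 of 6 fibre markers with a row (Ckm, Pvalb, Acta1, Myh1 and Tnnt3), the level was 159 RPKM in control 1, 620.2 RPKM in control 2, and 47.9 and 44.7 RPKM in the knockout libraries. Acta1, the skeletal alpha actin, made up most of this sum with 144, 455, 36.5 and 31.9 RPKM in the same order, and Myh1, an adult fast myosin heavy chain, stayed at or below 1.07 RPKM. Ckm had 3.63 and 39.4 RPKM in the controls versus 3.39 and 2.93 RPKM in the knockouts. Pvalb had 5.22 and 54.4 RPKM against 3.53 and 3.68 RPKM, and Tnnt3 5.58 and 70.1 RPKM against 4.18 and 5.86 RPKM. Ckm, Pvalb and Tnnt3 were thus high in control 2 only, and control 1 lay near the knockout libraries. Without control 2, the library with the highest fibre markers, the log2 change of Itga7 was -0.70 with a limma adjusted p of 0.663. The part of fibre RNA in the remaining difference was not tested.

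The other laminin receptor chains were near the low end. Itga6 (chromosome 2, 71745616 to 71858416, plus strand), the chain shared by the beta 1 and beta 4 receptors, had 1.63 and 2.20 RPKM in the controls versus 1.12 and 1.96 RPKM in the knockouts. Itga3 (chromosome 11, 95044474 to 95076801, minus strand), a receptor of laminins common in epithelia, had 1.31 and 2.21 RPKM in the controls versus 0.977 and 1.41 RPKM in the knockouts. The groups overlapped in both genes. Their log2 changes were -0.27 (SE 0.26, limma adjusted p = 0.617) for Itga6 and -0.40 (SE 0.25, limma adjusted p = 0.456) for Itga3. Itga6 ranged from -0.57 without knockout 2 to 0.04 without knockout 1, so its direction depended on 1 library. Replicate 2 was higher than replicate 1 in both groups for both genes, and these genes were counted with 132 to 415 reads per library. For Itgb4, the other beta partner of alpha 6, the levels were 0.621 and 0.772 RPKM in the controls versus 0.464 and 0.816 RPKM in the knockouts.

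Itgb1 (chromosome 8, 128685654 to 128733200, plus strand), the common beta chain of the laminin and fibronectin receptors, had 162 and 179.6 RPKM in the controls versus 139 and 118 RPKM in the knockouts. The 2 groups did not overlap. The means were 171 ± 12.7 and 129 ± 14.5 RPKM (SD, n = 2), 24.6% lower in knockout. The log2 change was -0.41 (SE 0.15), with a limma unadjusted p of 0.0389 and a limma adjusted p of 0.253, and the adjusted p in the authors' deposited table was 0.212.

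Among the fibronectin and RGD receptors, Itga5 (chromosome 15, 103344289 to 103366763, minus strand), the alpha chain of the fibronectin receptor, had 33.4 and 31.2 RPKM in the controls versus 25.9 and 18.7 RPKM in the knockouts. Both knockout libraries were below both controls, and knockout 2 was the lowest. The means were 32.3 ± 1.59 and 22.3 ± 5.08 RPKM (SD, n = 2), with a log2 change of -0.54 (SE 0.19) and a limma adjusted p of 0.238. Without knockout 2 the log2 change was -0.31. The authors' deposited table gave Itga5 an adjusted p of 0.113.

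Itgav (chromosome 2, 83724397 to 83806916, plus strand), the alpha chain of the RGD receptors that also activate latent TGF-beta, had 15.5 and 11.79 RPKM in the controls versus 11.75 and 8.95 RPKM in the knockouts. The groups did not overlap, but control 2 and knockout 1 were nearly equal. Its log2 change was -0.38 (SE 0.21), with a limma adjusted p of 0.400, and it was -0.19 without either control 1 or knockout 2. Exon bases of Itgav overlap those of Gm13684, a noncoding gene on the other strand in GENCODE. Itgb5 (chromosome 16, 33829665 to 33949153, plus strand), a beta partner of alpha v and a vitronectin receptor chain, had 10.4 and 18.7 RPKM in the controls versus 12.0 and 16.3 RPKM in the knockouts. Here the replicates of each group differed by more than the group means did, 14.6 ± 5.89 against 14.1 ± 3.05 RPKM (SD, n = 2), and the log2 change of 0.00 had an SE of 0.31. Itgb6 (chromosome 2, 60598292 to 60722643, minus strand), an epithelial partner of alpha v, had 13 and 20 reads in control and 17 and 4 reads in knockout, or 0.0788 and 0.135 RPKM against 0.0926 and 0.0342 RPKM. At this depth no difference in Itgb6 was detectable (limma adjusted p = 0.655).

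**Figure D2:**
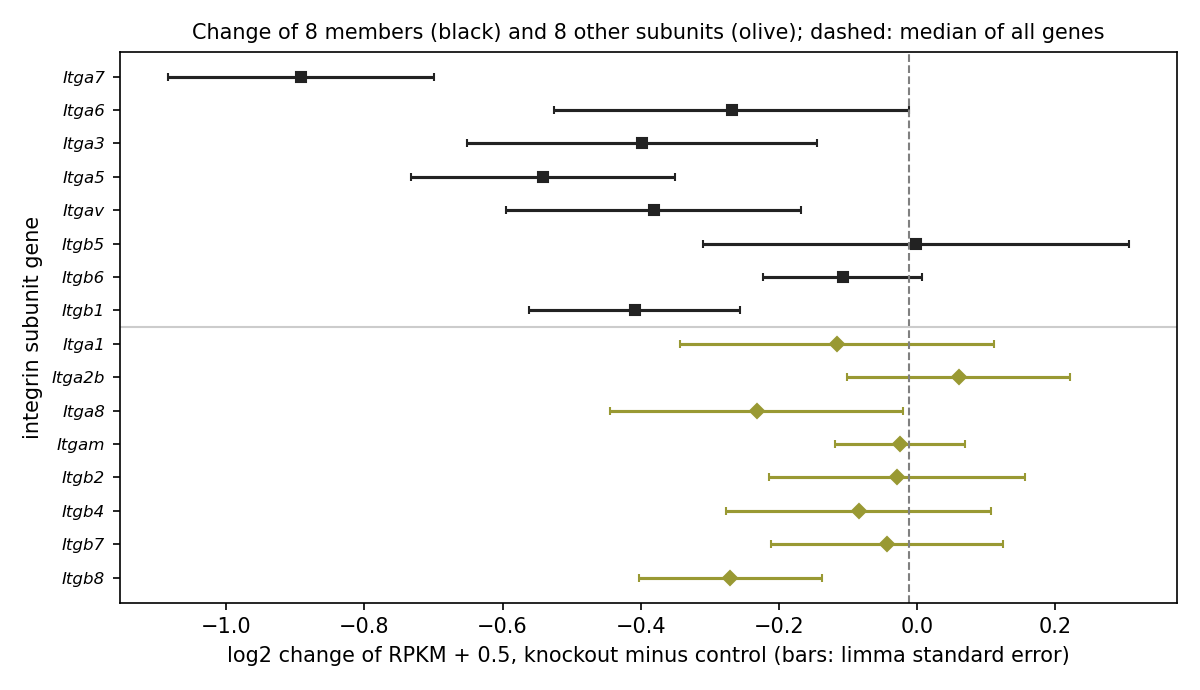
Log2 change of RPKM + 0.5, knockout minus control, with limma standard errors, for the 8 members (black squares) and the 8 other integrin subunits with a row (olive diamonds), and the median of all genes as a dashed line. Itga7 lies farthest from the line at -0.89, and Itgb5 lies next to it at 0.00.

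Ratios taken within a library do not depend on the scaling between libraries. The ratio of Itga7 to Itgb1 was 0.562 and 0.659 in control and 0.446 and 0.422 in knockout, and the groups did not overlap. The ratio of Itga5 to Itgb1 was 0.207 and 0.174 in control and 0.187 and 0.158 in knockout, with overlapping groups. The summed level of 7 alpha chains that can pair with beta 1 (Itga1, Itga3, Itga5, Itga6, Itga7, Itga8 and Itgav) was 0.914 and 0.949 of Itgb1 in control and 0.759 and 0.723 in knockout. Over the 9 alpha subunits with a row, Itga7 made up 60.5% and 68.6% of the summed RPKM in control and 57.4% and 56.9% in knockout, and Itga5 22.3% and 18.1% in control and 24.0% and 21.3% in knockout. The share of Itga7 did not overlap between the groups, and that of Itga5 did. The mean share of Itga7 was 64.5% in control and 57.1% in knockout, and without control 2, the library with the highest fibre markers, the control value was 60.5%, which brought the difference from -7.43 to -3.37 percentage points. The ratio of Itgav to Itgb5 was 1.49 and 0.630 in control and 0.982 and 0.550 in knockout, and replicate 1 was higher in both groups. No test was made of these ratios, since 2 libraries against 2 cannot give an exact permutation p below 0.333.

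**Figure D3:**
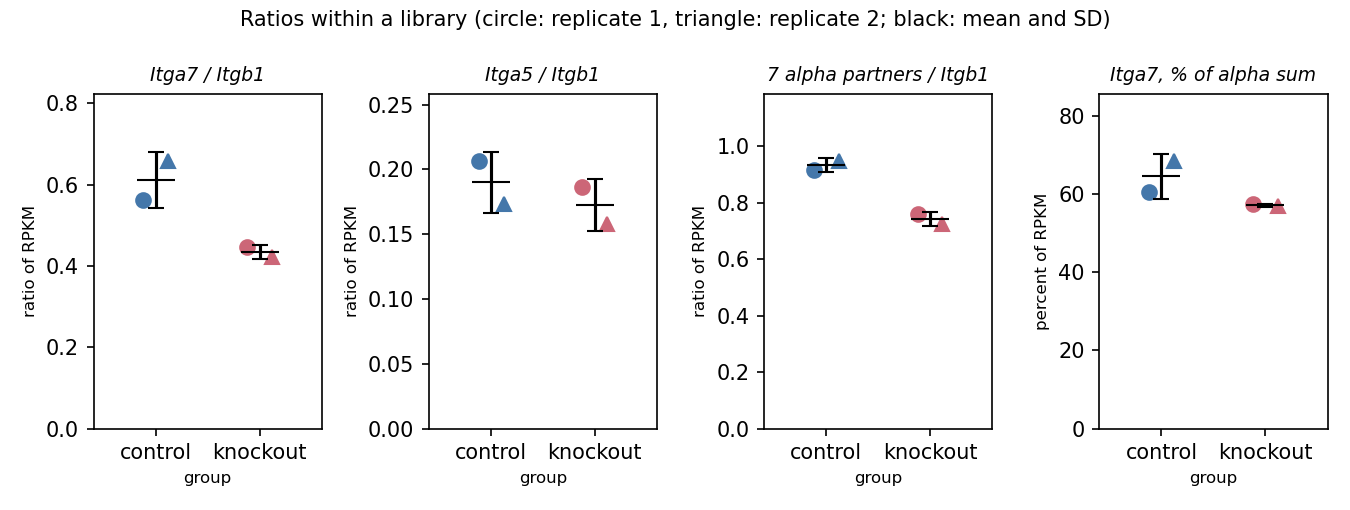
Ratios of RPKM within each library for Itga7 to Itgb1, Itga5 to Itgb1 and 7 alpha partners to Itgb1, and Itga7 as a percentage of the RPKM of 9 alpha subunits, for control (blue) and knockout (red), with circles for replicate 1, triangles for replicate 2 and black bars for mean and SD (n = 2). The ratio of Itga7 to Itgb1 is 0.611 ± 0.0689 in control and 0.434 ± 0.0164 in knockout, and that of Itga5 to Itgb1 overlaps between the groups.

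Of 16 integrin subunits named outside the members, 8 had a row, and 0 of these passed an adjusted 0.05 by limma. Without adjustment, limma at 0.05 called 0 lower and 0 higher, beside 7.69% and 10.3% of all genes. The authors' deposited adjusted p was under 0.05 for 0 of the 8, beside 4.26% of all genes lower and 3.59% higher. Both knockout values were below both control values in 2 of the 8 (Itgam and Itgb8), where 26.2% of all genes were. Both were above in 0, where 25% of all genes were. The median log2 change of the 8 was -0.06. The collagen receptor chain Itga1 had 2.03 and 2.59 RPKM in the controls versus 1.69 and 2.53 RPKM in the knockouts. The RGD receptor chain Itga8 had 3.08 and 2.08 RPKM against 2.14 and 2.04 RPKM. The platelet chain Itga2b had 2.32 and 2.14 RPKM against 2.39 and 2.30 RPKM. Itgb8, the partner of alpha v in TGF-beta activation, had 0.550 and 0.403 RPKM in the controls versus 0.312 and 0.303 RPKM in the knockouts, without overlap. The leukocyte chains were low in every library, with Itgb2 between 0.173 and 0.424 RPKM, Itgb7 between 0.226 and 0.466 RPKM and Itgam between 0.00607 and 0.0225 RPKM. Among the blood cell markers, Ptprc (CD45) stayed at or below 0.0399 RPKM and Csf1r at or below 0.294 RPKM. Higher were Lyz2, with 11.1 and 10.6 RPKM in the controls versus 4.62 and 13.0 RPKM in the knockouts, and Cd68. For Cd68 the levels were 5.15 and 5.26 RPKM against 7.18 and 5.23 RPKM, and both genes overlapped between the groups.

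Integrin tails are switched by talin, kindlins and their inhibitors. Of 20 activators and inhibitors with a row, 0 passed an adjusted 0.05 by limma. The authors' deposited table also called 0, beside 4.26% of all genes lower and 3.59% higher. At an unadjusted limma p under 0.05, 2 were lower and 1 higher, beside 7.69% and 10.3% of all genes. Of the 20, 8 had both knockout values below both control values (26.2% of all genes did) and 3 had both above (25% of all genes did). The median log2 change was -0.13. The most abundant, chosen by level, were the small GTPase Rap1b, which recruits talin, with 417 and 348 RPKM in the controls versus 457 and 511 RPKM in the knockouts, and the muscle filamin Flnc with 126 and 133 RPKM against 149.97 and 118 RPKM. Talin 1 (Tln1), chosen after its values were seen, had 9.51 and 9.46 RPKM against 8.73 and 8.70 RPKM. Kindlin 2 (Fermt2), the other main activator and also chosen after its values were seen, had 134 and 96.4 RPKM against 129.7 and 117 RPKM, with overlapping groups.

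Of 30 focal adhesion adaptors and kinases, all with a row, the authors' deposited table called 1 lower and 0 higher, where 4.26% and 3.59% of all genes were called, so the count was near the background. Limma called 0 after adjustment and 1 lower at an unadjusted p under 0.05, where 7.69% of all genes were. The median log2 change was -0.06. The lower gene was Vasp, an actin-elongation factor of focal adhesions, with 11.1 and 17.1 RPKM in the controls versus 7.51 and 8.49 RPKM in the knockouts and an adjusted p of 0.0300 in the authors' deposited table. The most abundant, caveolin 1 (Cav1) and the actin crosslinker Actn4, had log2 changes of -0.02 and -0.03.

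Of 10 membrane proteins that associate with integrins, 5 had both knockout values above both control values and 1 had both below, beside 25% and 26.2% of all genes, with a median log2 change of 0.24. The tetraspanin Cd82 was called higher in the authors' deposited table (adjusted p = 0.0220) and 0 were called lower there, while limma called 0. At an unadjusted limma p under 0.05, 3 were higher and 1 lower, beside 10.3% and 7.69% of all genes. Cd82 had 613 and 612 RPKM in the controls versus 906 and 995 RPKM in the knockouts. Cd63, a tetraspanin of endosomes and the surface, had 2959 and 2489 RPKM against 4369 and 4125 RPKM. The member of the list that was below in both knockout libraries was Cd151, the tetraspanin partner of laminin-binding integrins, with 16.05 and 15.95 RPKM against 12.8 and 11.9 RPKM. It was chosen after its values were seen and had a limma unadjusted p of 0.0478.

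Laminins, nidogens and other basement membrane proteins are the ligand side of Itga7. The list for them also holds the laminin receptor gene Dag1, which is included in the counts and median below. Of 15 genes of this list with a row, the authors' deposited table called 4 lower, Dag1 among them, and 0 higher, beside 4.26% and 3.59% of all genes. Limma called 0 after adjustment and 6 lower at an unadjusted p under 0.05, beside 7.69% of all genes, and the median log2 change was -0.35. Lamb1, the laminin beta 1 chain, had 10.1 and 9.47 RPKM in the controls versus 3.19 and 1.96 RPKM in the knockouts. Its log2 change was -1.77 (SE 0.24), with a limma adjusted p of 0.133 and an adjusted p of 5.23e-12 in the authors' deposited table. Lamc1, the gamma 1 chain of most basement membrane laminins, had 37.9 and 39.8 RPKM against 27.0 and 18.3 RPKM. The linker protein nidogen 2 (Nid2) had 8.35 and 10.8 RPKM against 5.62 and 3.75 RPKM. Dag1, encoding dystroglycan, a laminin receptor that is not an integrin, had 105 and 156 RPKM against 66.3 and 62.9 RPKM. The gene with the highest log2 change in this list was Lamc3, chosen after its values were seen, with 2.85 and 0.621 RPKM in the controls versus 7.999 and 2.01 RPKM in the knockouts, and its groups overlapped.

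Of 20 genes for fibronectin and RGD-type ligands with a row, the authors' deposited table called 3 lower and 1 higher, against the same 4.26% and 3.59% over all genes. Limma called 0 after adjustment. Unadjusted, 5 were lower and 1 higher by limma at 0.05, against 7.69% and 10.3% over all genes, and the median log2 change was -0.13. Tenascin C (Tnc), a ligand of alpha 9 and alpha v integrins, had 7.19 and 6.29 RPKM in the controls versus 1.47 and 1.03 RPKM in the knockouts. Its limma adjusted p was 0.126, and its adjusted p in the authors' deposited table was 9.11e-12. Fibrillin 1 (Fbn1) had 11.2 and 14.1 RPKM against 7.98 and 7.43 RPKM, and nephronectin (Npnt), the ligand of alpha 8 beta 1, had at most 0.438 RPKM. Vitronectin (Vtn), a ligand of alpha v beta 5, was the higher one, with 62.0 and 51.0 RPKM in the controls versus 88.6 and 89.8 RPKM in the knockouts and an adjusted p of 0.0451 in the authors' deposited table. The most abundant, the matricellular integrin ligands Cyr61 and Ctgf, had log2 changes of 0.18 and -0.25. Fibronectin itself (Fn1), the ligand of alpha 5 beta 1, had 2.69 and 2.03 RPKM against 1.24 and 2.52 RPKM, and Vcam1, an integrin ligand and the sort antigen, had 145 and 108 RPKM against 155 and 100.5 RPKM. Both were chosen after their values were seen, and both overlapped between the groups.

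**Figure D4:**
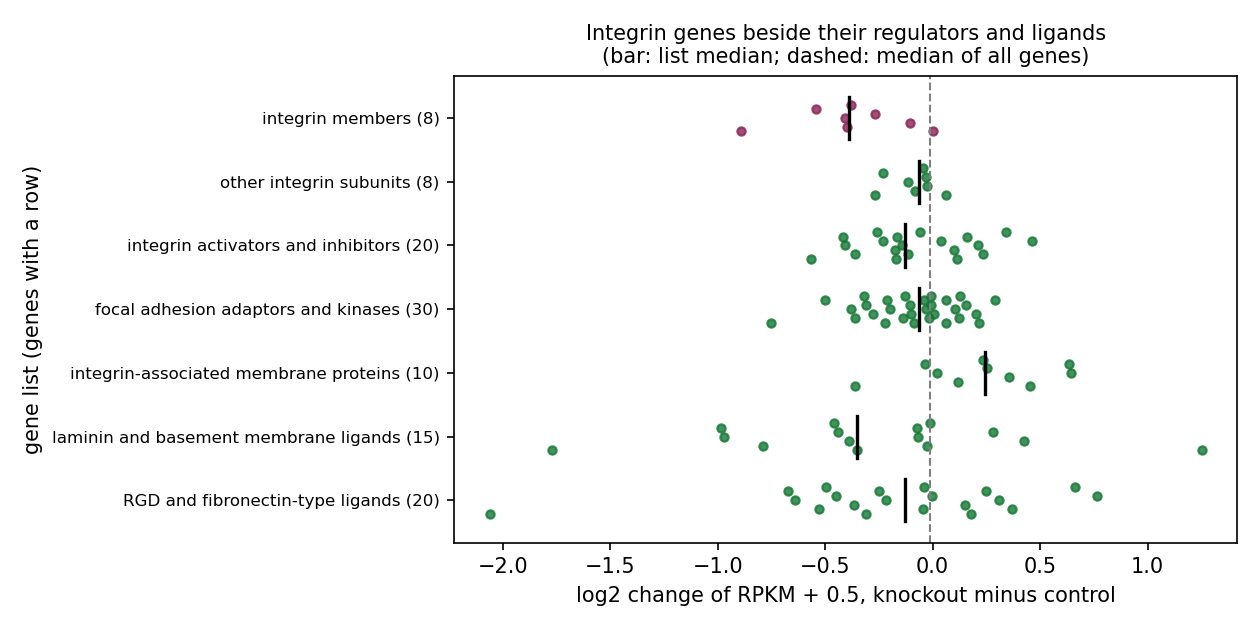
Log2 change of RPKM + 0.5, knockout minus control, for each gene with a row in the integrin members (purple) and 6 lists of related genes (green), with black bars at list medians and a dashed line at the median of all genes. The medians are -0.39 for the members, -0.35 for laminin and basement membrane genes, Dag1 among them, and 0.24 for integrin-associated membrane proteins.

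Reads assigned to the listed genes numbered 21757211 to 34101213 per library. All 9 muscle stem cell markers had a row, and their sum was higher in both knockout libraries, at 2972 and 2451 RPKM for control against 3957 and 4279 RPKM for knockout. Most of it was Sdc4, a syndecan, with 2121 and 1582 RPKM against 3031 and 3260 RPKM and an adjusted p of 0.00280 in the authors' deposited table. Myf5, Chodl and Cd34 were also above in both knockout libraries, so 4 of the 9 markers were, beside 25% of all genes. The other 5 (Pax7, Vcam1, Cdh15, Calcr and Heyl) overlapped between the groups, with Pax7 between 8.23 and 13.1 RPKM. Of these, Cdh15 (143 against 115 RPKM) and Calcr (60.6 against 56.4 RPKM) had lower means in knockout, and Pax7, Vcam1 and Heyl had higher ones. The gates on CD31 and CD45 are meant to remove endothelial and blood cells. Markers of other cell types summed to 41.9 to 76.4 RPKM for endothelium, 12.3 to 18.6 RPKM for blood, 19.1 to 39.2 RPKM for smooth muscle and pericytes and 4.84 to 14.0 RPKM for glia, and control and knockout overlapped in each of these sums. The fibro-adipogenic sum, over 4 of 6 markers with a row, was 267 and 223 RPKM in the controls versus 456 and 297 RPKM in the knockouts. Dpt had 131 and 117 RPKM against 323 and 124 RPKM, Dcn 76.6 and 48.8 RPKM against 51.1 and 83.7 RPKM. Lum had 10.7 and 7.78 RPKM against 4.93 and 8.36 RPKM, and these markers overlapped between the groups. Ly6a, which encodes the Sca1 antigen used for exclusion, was 47.9 and 49.5 RPKM against 77.4 and 80.7 RPKM. It was the only 1 of the 4 above in both knockout libraries, beside 25% of all genes. The part of these other cells in the differences of the integrin genes was not tested.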

How the data were processed

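RNA of sorted muscle stem cells (10 ng per library) was sequenced in 2 control and 2 knockout libraries. The submitters' processing notes list STAR, Trim Galore, featureCounts (Subread) and edgeR, with mm10 (GRCm38). For versions, settings and the gene filter, these sources say nothing. The authors deposited RPKM values made from read counts per gene, scaled by gene length and library size. The header does not name the unit, which was read from the values: value times length gave whole reads within 0.01 for 100% of values. The authors also deposited an adjusted p-value (q-value) per gene. Columns named Ct were matched to control and Fl to knockout. The labels do not spell out Fl.

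The comparison was fitted with limma 3.58.1 in R 4.3.3, using trend = TRUE, on log2(RPKM + 0.5) of the 11603 genes, with genotype as the only term. P-values were Benjamini-Hochberg adjusted, with a threshold of 0.05. Log2 changes on this scale understate those of low genes. The authors' library sizes were 75.5% to 92.4% of the reads listed. Relative to each other, these percentages differed by at most 0.579% from TMM factors computed on the recovered reads. TMM, the trimmed mean of M values, scales libraries after trimming genes with extreme ratios between them. Members and gene lists were chosen with earlier results of these data known. Named are Hr, all members, every other subunit with a row and, per list, up to 4 genes past the authors' threshold and the 2 with the highest mean. Others are marked as chosen after their values were seen. List symbols were matched by symbol or Entrez ID. Coding sequences came from the principal GENCODE M21 transcripts. Alternatives were other pseudocounts, a minimum of 1 RPKM, other scalings, a replicate block, leaving out each library and, added later, limma-voom on the recovered reads and ratios without control 2.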

Additional observations from a re-analysis of the deposited data

How the results depend on the processing

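No integrin member passed limma in 10 of the 11 alternatives. With the replicate number as a replicate block, limma called 1 member, Itga7 (log2 change -0.89, adjusted p = 0.0357), and 1004 genes in all, 413 lower and 591 higher. The labels do not say that a number marks a shared animal or batch. Deviations of same-numbered libraries correlated across genes at 0.394 (Pearson), over only 2 pairs. Of all genes, 1 was called in the main analysis, 11 by limma-voom on the recovered reads (chosen after seeing the data; 8 lower, 3 higher), and 0 to 1 when 1 library was left out, where a lone library was assumed to vary like the other group. Itga7, Itga5, Itgb1, Itgav and Itga3 had log2 changes below 0 in all 12 settings run and Itgb6 in all 11 it entered. Itga6 was below 0 in 11 of 12 and Itgb5 in 9 of 12. Leaving out 1 library, Itga7 ranged from -1.08 to -0.70, Itga5 from -0.77 to -0.31, Itgb1 from -0.52 to -0.29, Itgav from -0.57 to -0.19, Itga3 from -0.69 (without control 1) to -0.11 (without control 2) and Itgb5 from -0.41 to 0.41. Scaling to the reads listed moved the median of all genes to -0.20, that of the members to -0.57 and Itga7 to -1.13. The adjusted p of Itga7 lay between 0.0357 and 0.663 over all settings. Count models on raw reads were planned and not run. The deposited unit is RPKM, and limma-voom on the reads recovered from it was run instead. The 4 to 20 reads per library limit what can be said of Itgb6.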
